A study of Homo sapiens with 8 samples.

Results

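Natural antisense RNAs are transcribed from the DNA strand opposite to another gene and carry that gene's name followed by -AS and a number. The deposited table held 979 rows named in this way among 26372 gene rows. The set described here is the 384 of them with a mean of at least 0.5 FPKM (fragments per kilobase of transcript, scaled to the total of mapped fragments) over the 8 libraries. PSMB8-AS1 and HLA-F-AS1 reached that level and were left out by name. A further 593 rows lay below it, and 190 of those read 0 in every one of the 8 libraries. The members were chosen by their mean level, so that level is given as a description only. Just inside the limit were DLGAP1-AS3 at a mean of 0.505, HOXC-AS1 at 0.506 and GLYCTK-AS1 at 0.508 FPKM. Just outside it were CEP83-AS1 and ERICH1-AS1, both at 0.492, and STAU2-AS1 at 0.490 FPKM.

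The libraries came from BE(2)-M17, a human neuroblastoma cell line of sympathetic origin that grows in culture and that the labels call M17. 4 libraries were untreated and 4 came from cells given interferon gamma (IFN-γ) at 10 ng/ml for 24 h. All 8 come from 1 cell line, and the labels do not say that they are separate cultures, so a p-value here reflects how these libraries vary, and that variation may be technical. The growth protocol also names SH-SY5Y, another neuroblastoma line, and no library carries that label.

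Of 12 markers of sympathetic neuroblastoma, none was at 0 throughout, and their summed level was 3356 to 3441 FPKM untreated and 3420 to 3698 FPKM with IFN-γ. Summed leukocyte markers reached at most 0.653 FPKM, with CD3D and CD3E at 0, and summed endothelial markers at most 0.0403 FPKM. Epithelial markers summed to at most 0.453 FPKM with KRT5 at 0, glial markers to 1.45 to 1.97 FPKM, and fibroblast markers to 156 to 219 FPKM. The fibroblast sum was almost wholly DCN and LUM, with the collagen genes COL1A2 and COL3A1 at means of at most 0.0115 and 0.284 FPKM. LUM was called higher with IFN-γ (log2 change 0.66, limma adjusted p = 0.00152), and its part in the results was not tested. Steps between low values gave an estimated 14.03 to 20.44 M fragments per library. IFN-γ replicate 4 stood apart from its group: the mean variance over counting error was 4.29 to 4.79 in the 3 comparisons that include it and 1.65 to 2.51 in the other replicate comparisons.

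Antisense RNAs can act on the gene they face by blocking its transcription, by recruiting chromatin regulators or by pairing with its RNA, and many have no known function. Many start at a promoter shared with the opposite gene, and many are short-lived nuclear RNAs. IFN-γ is a cytokine that changes the transcription of many genes. GAS and ISRE are short DNA elements known from promoters of interferon-responsive genes. The library kit does not mark strand, so where an antisense RNA and a sense gene share exons their reads cannot be told apart. The same goes for reads of unspliced sense RNA over antisense exons that lie in the sense gene's introns. Both limits hold for every value below.

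Promoter sequences are shown for MMP25-AS1, the divergent pair IL10RB-AS1 and IL10RB, and PSMA3-AS1 with PSMA3, the 1 pair that moved in opposite directions. They are from RefSeq (GRCh38.p14) and run 5′ to 3′ on the gene's own strand, from 250 bases before to 50 bases after the start. Capitals mark a match to the GAS letters TTCNNNGAA. Of 20 members called higher that have a promoter entry, only MMP25-AS1 and IL10RB-AS1 held these letters. The printed promoters therefore do not stand for the rises as a set. MMP25-AS1 lies at chr16:3059321-3059620 (minus strand), IL10RB-AS1, now IL10RB-DT in RefSeq, at chr21:33266211-33266510 (minus), and IL10RB at chr21:33266117-33266416 (plus). PSMA3-AS1 lies at chr14:58298088-58298387 (minus) and PSMA3 at chr14:58244593-58244892 (plus).
MMP25-AS1: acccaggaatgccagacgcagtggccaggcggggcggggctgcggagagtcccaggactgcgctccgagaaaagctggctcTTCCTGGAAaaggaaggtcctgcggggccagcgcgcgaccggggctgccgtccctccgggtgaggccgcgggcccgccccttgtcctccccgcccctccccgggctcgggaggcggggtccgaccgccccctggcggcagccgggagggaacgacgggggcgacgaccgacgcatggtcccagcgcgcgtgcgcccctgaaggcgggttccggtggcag
IL10RB-AS1: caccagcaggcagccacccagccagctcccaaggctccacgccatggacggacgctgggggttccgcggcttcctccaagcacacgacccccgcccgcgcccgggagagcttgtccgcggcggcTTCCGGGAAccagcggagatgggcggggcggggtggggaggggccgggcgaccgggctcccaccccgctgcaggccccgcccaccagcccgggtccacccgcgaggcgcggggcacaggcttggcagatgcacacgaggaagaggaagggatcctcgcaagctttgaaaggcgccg
IL10RB: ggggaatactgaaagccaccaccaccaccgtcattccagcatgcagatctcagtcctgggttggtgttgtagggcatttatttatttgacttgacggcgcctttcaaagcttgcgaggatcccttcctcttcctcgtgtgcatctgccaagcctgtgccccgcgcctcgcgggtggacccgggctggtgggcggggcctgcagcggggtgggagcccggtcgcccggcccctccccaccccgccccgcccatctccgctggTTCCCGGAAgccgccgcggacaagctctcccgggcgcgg
PSMA3-AS1: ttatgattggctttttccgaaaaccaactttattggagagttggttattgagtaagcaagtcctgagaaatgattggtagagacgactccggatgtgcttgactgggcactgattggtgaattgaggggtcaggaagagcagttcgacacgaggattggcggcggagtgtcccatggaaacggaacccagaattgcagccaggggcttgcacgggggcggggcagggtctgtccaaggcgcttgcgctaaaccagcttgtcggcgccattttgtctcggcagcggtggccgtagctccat
PSMA3: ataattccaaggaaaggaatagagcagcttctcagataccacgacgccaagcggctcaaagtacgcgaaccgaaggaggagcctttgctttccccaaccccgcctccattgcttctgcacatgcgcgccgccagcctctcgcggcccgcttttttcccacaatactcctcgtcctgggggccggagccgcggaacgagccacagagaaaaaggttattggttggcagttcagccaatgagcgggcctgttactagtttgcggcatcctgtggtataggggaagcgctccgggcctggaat

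The match in MMP25-AS1 began at position −169 from the start. The match in IL10RB-AS1 and that in IL10RB are the same site read on the 2 strands, at chr21:33266378-33266386, beginning at position −126 from the IL10RB-AS1 start and at position 12 of IL10RB. Neither PSMA3 promoter held GAS or ISRE letters (GAAA, any 2 bases, GAAA, with both motifs searched on both strands). RefSeq promoters were matched for 292 members, of which 22 (7.53%) held the GAS letters, against 7.88% of all 27305 promoters. The ISRE letters were in 7 members (2.4%) against 3.65% of all promoters. Of 20 members with a promoter entry that were called higher, 2 held GAS letters (MMP25-AS1 and IL10RB-AS1) and 1 held ISRE letters (STARD4-AS1). Of 11 called lower, 0 held GAS letters and 2 held ISRE letters (CCNT2-AS1 and FAM13A-AS1). A match says only that the letters are present.

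The antisense RNAs were mostly scarce. Their median mean level was 1.61 FPKM, against 9.22 FPKM over all genes tested, and 218 lay below 2 FPKM while 35 reached 10 FPKM. A sense row was in the table for 379 members. The median sense level was 12.6 FPKM, the median log2 ratio of antisense to sense level was −2.53, and 65 antisense RNAs lay above their sense gene. GENCODE 29 gave a gene model for 375 members, typed as antisense in 286 cases, lincRNA in 42 and processed transcript in 35. Both models were available for 370 pairs, and all 370 were on opposite strands. Exons overlapped in 232 pairs, by a median of 300 nt. Only introns overlapped in 87 pairs, and 51 pairs were divergent, with starts within 1000 nt and a median gap of 101 nt. In RefSeq, 46 members are now named as divergent transcripts (-DT), and 3 are annotated as protein coding.

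**Figure D1:**
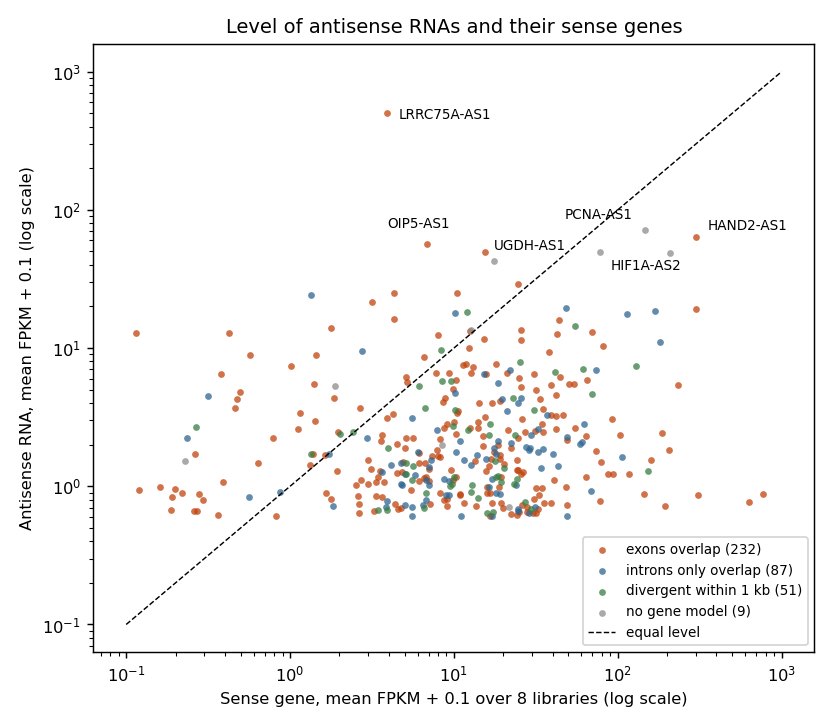
Mean level of each antisense RNA (vertical) against its sense gene (horizontal), both as FPKM + 0.1 on log scales, 1 point per pair, coloured by how the gene models lie. Most points lie under the dashed line of equal level, and 65 lie above it, among them LRRC75A-AS1, OIP5-AS1 and UGDH-AS1.

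Of the 6 most abundant members, only HIF1A-AS2 was called on the deposited scale, and other scalings changed the call for LRRC75A-AS1, OIP5-AS1 and HIF1A-AS2. LRRC75A-AS1, a snoRNA host transcript now called SNHG29, was at 499.6, 509.9, 515.7 and 533.5 FPKM untreated and at 440.7, 434.5, 457.2 and 606.7 FPKM with IFN-γ. IFN-γ replicates 1 to 3 lay under all untreated ones and replicate 4 above them. Its log2 change of −0.10 (SE 0.0996) had a limma adjusted p of 0.524, and without IFN-γ replicate 4 it was −0.21 with adjusted p = 0.000427. It was also called lower under quantile normalization (−0.18, adjusted p = 0.00346) and when values were converted to TPM with short RNA genes removed (the TPM scaling, −0.19, adjusted p = 0.0299). HAND2-AS1 faces HAND2, a transcription factor of sympathetic neurons. It was at 62.6 ± 4.00 FPKM untreated and 64.2 ± 3.58 FPKM with IFN-γ (SD, n = 4), and HAND2 at 307 ± 2.62 and 297 ± 4.82 FPKM. HAND2 was not called (log2 change −0.05, adjusted p = 0.417), though its groups did not overlap. It was called lower under quantile normalization (−0.18, adjusted p = 0.0392) and the TPM scaling (−0.14, adjusted p = 0.0418). OIP5-AS1 was at 57.8 ± 1.97 and 55.3 ± 1.87 FPKM, and UGDH-AS1 at 49.5 ± 1.52 and 49.1 ± 8.32 FPKM (SD, n = 4). UGDH itself was called higher, from 13.9 ± 0.935 to 16.8 ± 0.979 FPKM (log2 change 0.27, adjusted p = 0.00953), with no overlap between groups. The UGDH call was lost under the TPM scaling (0.18, adjusted p = 0.132). Groups overlapped for HAND2-AS1, OIP5-AS1 and UGDH-AS1, and under quantile normalization OIP5-AS1 was called lower (−0.18, adjusted p = 0.0145). PCNA-AS1, at 69.9 ± 6.75 and 73.7 ± 13.9 FPKM, lies wholly inside exons of PCNA, the DNA clamp of replication: 384 of its 384 nt are shared. HIF1A-AS2 was called higher, from 46.1 ± 2.73 to 52.5 ± 2.91 FPKM (log2 change 0.19, SE 0.0544, adjusted p = 0.0332), as was HIF1A (log2 change 0.13, adjusted p = 0.0226). Of its 2051 nt RefSeq span, 1221 nt lie in HIF1A exons. The HIF1A-AS2 call was lost under quantile normalization (log2 change 0.08, adjusted p = 0.183), under the TPM scaling (0.10, adjusted p = 0.177), without the trend (adjusted p = 0.0656) and when IFN-γ replicate 1 or 3 or untreated replicate 1, 2 or 3 was left out (adjusted p up to 0.0833). Under those scalings HIF1A changed by 0.02 (adjusted p = 0.697) and 0.04 (adjusted p = 0.487). Its call was also lost without the trend (adjusted p = 0.0519), with the replicate number as a block (adjusted p = 0.0536), and when IFN-γ replicate 1 or any 1 untreated library was removed (adjusted p up to 0.0714).

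With IFN-γ, 28 antisense RNAs were called higher and 19 lower at an adjusted p under 0.05 (limma on log2(FPKM + 0.1), Benjamini-Hochberg over 13598 genes), and 337 were not called. That is 12.2% of the members, against 22.3% of all genes tested. Called higher were 7.29% of members against 13.3% of all genes, and called lower 4.95% against 9.05%. The split between directions depended on scaling: 26 higher and 47 lower under quantile normalization, and 19 higher and 27 lower under the TPM scaling. Over all genes the split was 1809 higher and 1230 lower, 1470 and 2564 under quantile normalization, and 1142 and 1768 under the TPM scaling. Without untreated replicate 4, 12 members were called lower. All 47 called members kept their sign under each of the 3 other scalings, and 37 kept their call.

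A member could pass the level filter through 1 group alone. 355 members had group means of at least 0.5 FPKM in both groups, and of these 20 were called higher and 18 lower (10.7%). 12 members reached 0.5 FPKM only with IFN-γ, of which 8 were called higher, and 17 only without it, of which 1 was called lower. Groups did not overlap for 55 members (14.3%, 26 higher and 29 lower), against 28.2% of all genes tested.

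**Figure D2:**
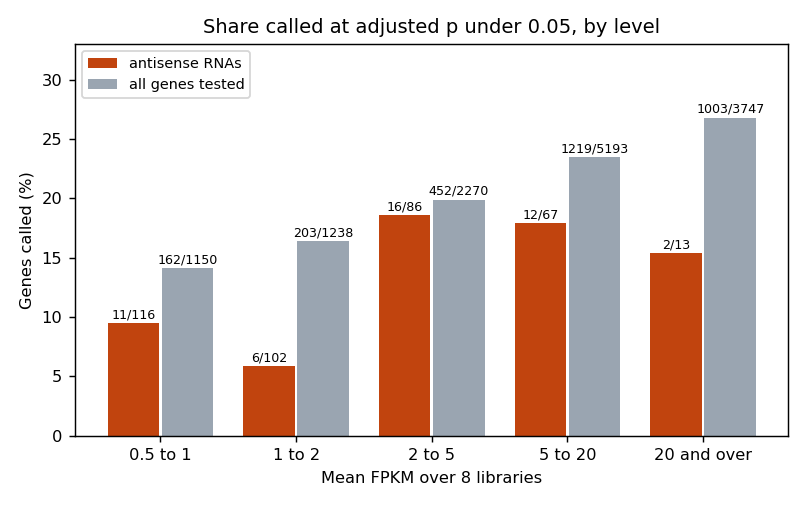
Share of genes called (vertical, percent) in 5 classes of mean FPKM (horizontal) for antisense RNAs and for all genes tested, with the counts above the bars. The antisense share lies under the share of all genes in each class, at 9.48% against 14.1% in the lowest class and 18.6% against 19.9% between 2 and 5 FPKM.

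Within classes of like level, the members' share was below that of all genes in each of 5 level classes, and their median SE was above it in each, at 0.294 against 0.224 in the lowest class. The median number of fragments behind a member was 49.6 per library, and 84 members had under 20. Among uncalled members, 273 had a 95% interval of the change within 2-fold and 64 had one that reached 2-fold, so a change of that size cannot be set aside for the latter.

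The largest rises were in USP30-AS1, IL10RB-AS1, SRD5A3-AS1, MMP25-AS1 and LZTS1-AS1, each higher in 4 of 4 IFN-γ libraries than in any untreated library, as the naming rule required. All but LZTS1-AS1 entered the set through their IFN-γ values, with untreated means under 0.5 FPKM, so they had to differ and their p-values are descriptions. USP30-AS1 faces USP30, a mitochondrial deubiquitinase. It was at 0.231, 0.260, 0.466 and 0.154 FPKM untreated and at 3.74, 2.51, 2.68 and 3.19 FPKM with IFN-γ (log2 change 3.10, SE 0.242, adjusted p = 6.7e-06). USP30 itself was at 5.69 ± 0.152 and 6.29 ± 0.537 FPKM (SD, n = 4), with overlapping groups (adjusted p = 0.189). USP30-AS1 shares 35.5% of its exon bases with other rows.

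MMP25-AS1, opposite a membrane-anchored metalloproteinase, was at 0.504, 0.472, 0.267 and 0.238 FPKM untreated and 2.81, 3.27, 3.49 and 1.93 FPKM with IFN-γ (log2 change 2.68, SE 0.248, adjusted p = 2.6e-05). MMP25 was below the filter at 0.0328 ± 0.0310 and 0.295 ± 0.0892 FPKM (SD, n = 4) and was not tested. The pair overlaps in exons over 1454 nt. This is the antisense RNA whose promoter, printed above, holds the GAS letters TTCCTGGAA.

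SRD5A3-AS1, opposite an enzyme of dolichol synthesis, was at 0.249, 0.280, 0 and 0 FPKM untreated and at 1.03, 1.16, 1.24 and 1.19 FPKM with IFN-γ (log2 change 2.71, SE 0.462, adjusted p = 0.00189). SRD5A3 overlapped between groups at 4.08 ± 0.234 and 4.46 ± 0.327 FPKM (SD, n = 4). For 3 of 20 RNAs tried (the largest rises and falls), low values lay within 0.12 of whole multiples of 1 fragment, a check added after the values were seen that tried 7 step sizes per RNA and read multiples up to 15. By it, SRD5A3-AS1 rested on 3, 4, 0 and 0 fragments untreated and 14, 12, 15 and 18 with IFN-γ. USP30-AS1 rested on 3, 4, 6 and 2 untreated, and LZTS1-AS1 on 8, 10, 13 and 6. The other estimate, from the longest GENCODE transcript, was higher for SRD5A3-AS1, at means of 3.82 untreated and 32.3 with IFN-γ. It gave untreated means of 3.09 for USP30-AS1 and 11.8 for LZTS1-AS1.

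IL10RB-AS1 starts 98 nt from IL10RB, the receptor chain shared by interleukin 10 and interferon lambda, and runs the other way. It was at 0, 0.219, 0 and 0.534 FPKM untreated and 1.62, 1.54, 1.58 and 0.825 FPKM with IFN-γ (log2 change 2.77, SE 0.568, adjusted p = 0.00584). IL10RB rose from 5.00 ± 0.468 to 8.32 ± 0.677 FPKM (SD, n = 4, log2 change 0.73, adjusted p = 0.000155). Exons of other rows cover 80.9% of the IL10RB-AS1 exon bases. The neighbouring interferon receptor gene IFNAR2 went from 9.37 to 17.1 FPKM (log2 change 0.87), and its part in the IL10RB-AS1 value was not tested. The size of these low-level rises depended on the pseudocount: over the alternatives the log2 change ran from 1.65 to 3.49 for USP30-AS1, 1.02 to 4.51 for IL10RB-AS1, 0.94 to 4.47 for SRD5A3-AS1 and 1.49 to 2.96 for MMP25-AS1, and each call held.

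**Figure D3:**
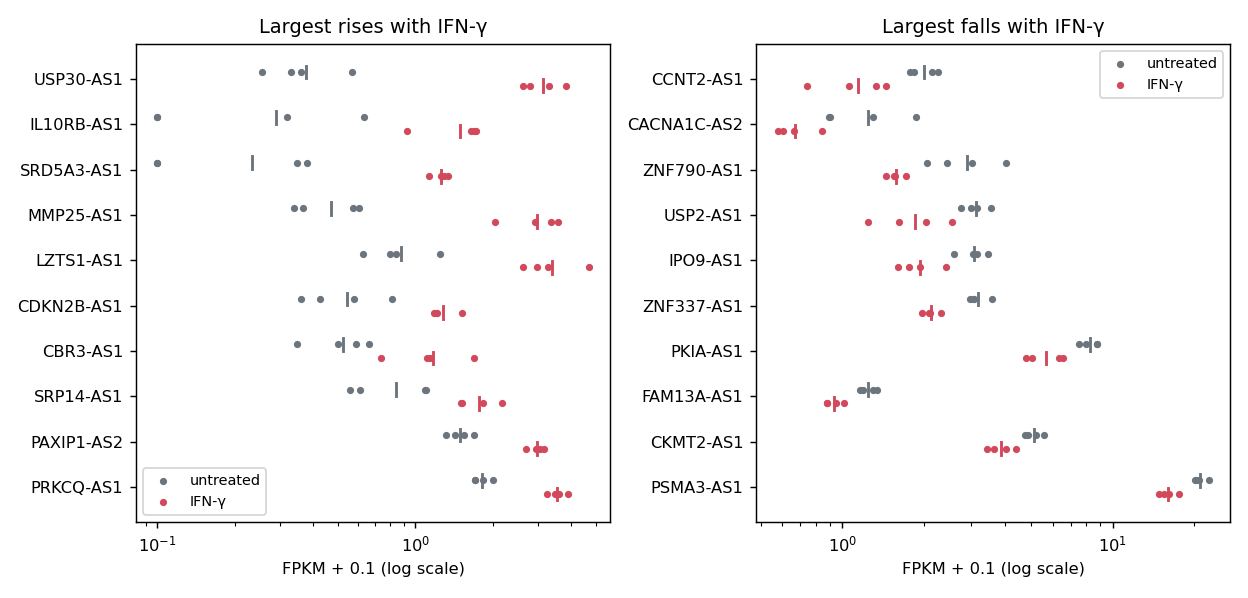
FPKM + 0.1 on a log scale in each library for the 10 largest rises (left) and 10 largest falls (right), with untreated libraries in grey, IFN-γ libraries in red and a bar at each group mean. Groups do not overlap in any row, which the naming rule required, and the rises span more of the scale than the falls.

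The other named rises were smaller. CDKN2B-AS1, also called ANRIL, lies opposite a cell cycle inhibitor and was at 0.444 ± 0.201 and 1.18 ± 0.163 FPKM (SD, n = 4, log2 change 1.29, SE 0.253, adjusted p = 0.00442). It too had an untreated mean under 0.5 FPKM and entered the set through its IFN-γ values, so its p-value is a description. CDKN2B was not called (log2 change 0.40, adjusted p = 0.0925), though its groups did not overlap. Without the trend it was called higher (adjusted p = 0.0147). CDKN2A, within 50 kb of CDKN2B-AS1, was called higher, from 7.58 to 12.3 FPKM (log2 change 0.68). Its part in the CDKN2B-AS1 value was not tested. SRP14-AS1 rose from 0.739 ± 0.294 to 1.66 ± 0.318 FPKM and PAXIP1-AS2 from 1.39 ± 0.160 to 2.85 ± 0.203 FPKM (SD, n = 4). Their sense genes, for a signal recognition particle protein and a DNA damage adaptor, changed by 0.05 and −0.01 on the log2 scale, with overlapping groups. PRKCQ-AS1 rose from 1.71 ± 0.142 to 3.45 ± 0.273 FPKM (SD, n = 4), and the kinase gene PRKCQ stayed below the filter at 0.152 and 0.183 FPKM.

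Called changes of at least 2-fold numbered 10 higher and 1 lower among members, and 386 and 37 over all genes. Of the 10, 8 reached 0.5 FPKM only with IFN-γ, so they passed the filter through their rise. The 1 fall was SH3PXD2A-AS1. CCNT2-AS1, opposite a cyclin of the elongation factor P-TEFb, was at 1.69, 2.04, 1.75 and 2.17 FPKM untreated and 0.638, 1.35, 0.955 and 1.23 FPKM with IFN-γ (log2 change −0.85, SE 0.206, adjusted p = 0.0141). CCNT2 was at 16.7 ± 0.611 and 16.8 ± 0.121 FPKM (SD, n = 4). ZNF790-AS1 fell from 2.78 ± 0.853 to 1.48 ± 0.112 FPKM and ZNF337-AS1 from 3.07 ± 0.272 to 2.02 ± 0.138 FPKM (SD, n = 4), while neither zinc finger gene was called. ZNF337 changed by 0.07 and ZNF790 by −0.29 (adjusted p = 0.109), and ZNF790 was called lower under quantile normalization (−0.32, adjusted p = 0.0496). ZNF850, within 50 kb of ZNF790-AS1, was called lower, from 5.69 to 3.15 FPKM (log2 change −0.85). Its part in the ZNF790-AS1 value was not tested. CKMT2-AS1 fell from 5.00 ± 0.370 to 3.77 ± 0.417 FPKM. In 3 named falls the sense gene was called lower too: PKIA-AS1 with the protein kinase A inhibitor PKIA (log2 changes −0.55 and −0.63), USP2-AS1 with the deubiquitinase USP2 (−0.78 and −0.43) and IPO9-AS1 with the importin IPO9 (−0.67 and −0.14). The USP2-AS1 call was lost without untreated replicate 4 (adjusted p = 0.0558). That of USP2 was lost without IFN-γ replicate 3 or untreated replicate 1, 2 or 4 (adjusted p up to 0.0733), and that of IPO9 without IFN-γ replicate 3 or any 1 untreated library (adjusted p up to 0.123). The IPO9 call was also lost under the TPM scaling (adjusted p = 0.0511), without the trend (0.0840), without the level filter (0.0562) and with the replicate number as a block (0.0516). CACNA1C-AS2 (log2 change −0.83, adjusted p = 0.0418) was no longer called once IFN-γ replicate 1, 3 or 4, or untreated replicate 2 or 4, was removed (adjusted p up to 0.105). Its call was also lost without the level filter (adjusted p = 0.0656), with a pseudocount of 1 (0.0515) and with the replicate number as a block (0.0501). FAM13A-AS1 (log2 change −0.43, adjusted p = 0.0392) lost its call without any 1 library other than IFN-γ replicate 2 (adjusted p up to 0.108). The same held without the level filter (adjusted p = 0.0550) and with the replicate number as a block (0.0988).

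Both genes were tested in 354 pairs. Of 343 distinct sense genes tested, 50 were called higher and 49 lower (28.9%, against 22.3% of all genes tested). The split was 46 and 85 under quantile normalization and 33 and 65 under the TPM scaling. Without untreated replicate 2 or 3, 31 and 32 were called lower. Both genes of a pair were called in 18 pairs: 11 with both higher, 6 with both lower and 1 in opposite directions. The sense gene alone was called in 83 pairs and the antisense RNA alone in 23. The antisense RNA was called in 17.8% of the 101 pairs whose sense gene was called and in 9.09% of the other 253. Both genes were called in 8 of 84 pairs that overlap in introns only (9.52%), 7 of 212 that overlap in exons (3.3%) and 2 of 50 divergent pairs (4%). Among 2320 other opposite-strand gene pairs of the table, both were called in 125 (5.39%, against 5.08% of member pairs), 93 in the same direction and 32 in opposite directions. Pairs that overlap in introns only had the highest share there too, at 26 of 351 (7.41%). The others were 75 of 1426 with overlapping exons (5.26%) and 24 of 543 divergent pairs (4.42%). Leaving out any 1 untreated library left 11 member pairs called in the same direction, and leaving out IFN-γ replicate 2, 3 or 4 gave 2, 2 and 3 in opposite directions.

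**Figure D4:**
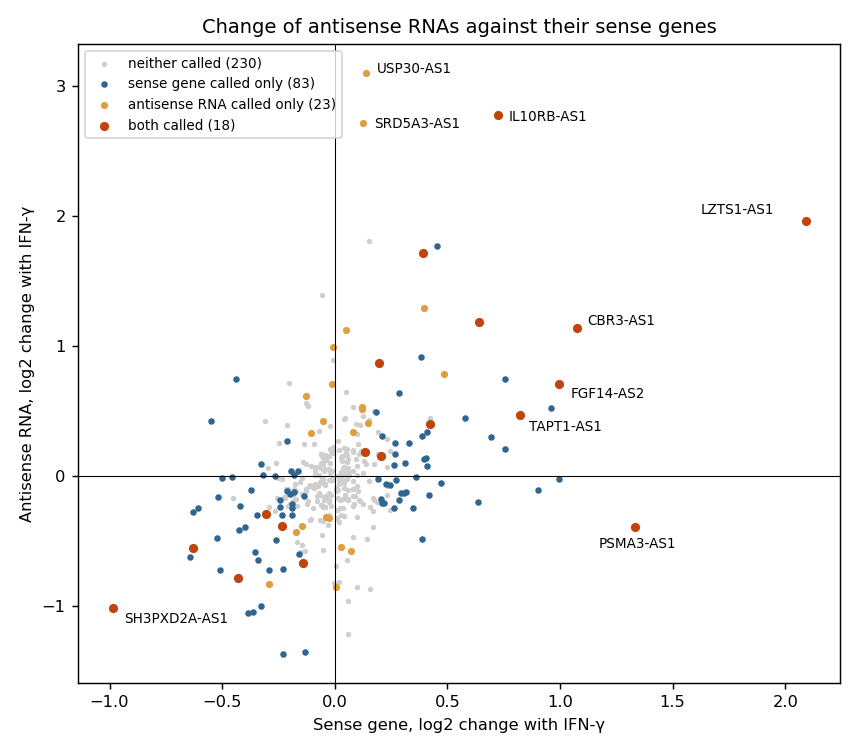
Log2 change with IFN-γ of each antisense RNA (vertical) against that of its sense gene (horizontal) for the 354 pairs with both genes tested, coloured by which gene was called. Of the 18 pairs with both called, 17 lie in the lower left or upper right, and PSMA3-AS1 lies at the lower right.

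PSMA3-AS1 and PSMA3, an alpha subunit of the proteasome core, were called in opposite directions. PSMA3-AS1 was at 20.7, 20.1, 20.2 and 22.6 FPKM untreated and at 15.5, 16.1, 17.5 and 14.8 FPKM with IFN-γ (log2 change −0.39, SE 0.0610, adjusted p = 0.00115). PSMA3 was at 92.8, 88.5, 102.8 and 98.5 FPKM untreated and at 217.2, 228.8, 223.8 and 300.7 FPKM with IFN-γ (log2 change 1.33, SE 0.0978, adjusted p = 4.1e-06). Neither gene's groups overlapped. The models overlap in introns only, and 3.41% of the PSMA3-AS1 exon bases are shared with other rows.

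LZTS1-AS1 overlaps LZTS1, the gene of a leucine zipper protein of neurons, in introns only. It was at 0.698, 0.739, 1.147 and 0.527 FPKM untreated and 3.17, 4.59, 2.87 and 2.51 FPKM with IFN-γ (log2 change 1.96, SE 0.233, adjusted p = 0.000167). LZTS1 rose from 6.88 ± 0.110 to 29.9 ± 4.36 FPKM (SD, n = 4, log2 change 2.09). FGF14-AS2 likewise shares no exon base with FGF14, a regulator of sodium channels. It rose from 13.5 ± 0.391 to 22.1 ± 2.02 FPKM as FGF14 rose from 6.75 ± 1.02 to 13.5 ± 0.4554 FPKM (SD, n = 4). FGF14-AS1, in another part of the same gene, was at 3.53, 2.97, 4.71 and 7.37 FPKM untreated and 7.23, 5.42, 3.11 and 2.78 FPKM with IFN-γ, with overlapping groups (adjusted p = 0.972).

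**Figure D5:**
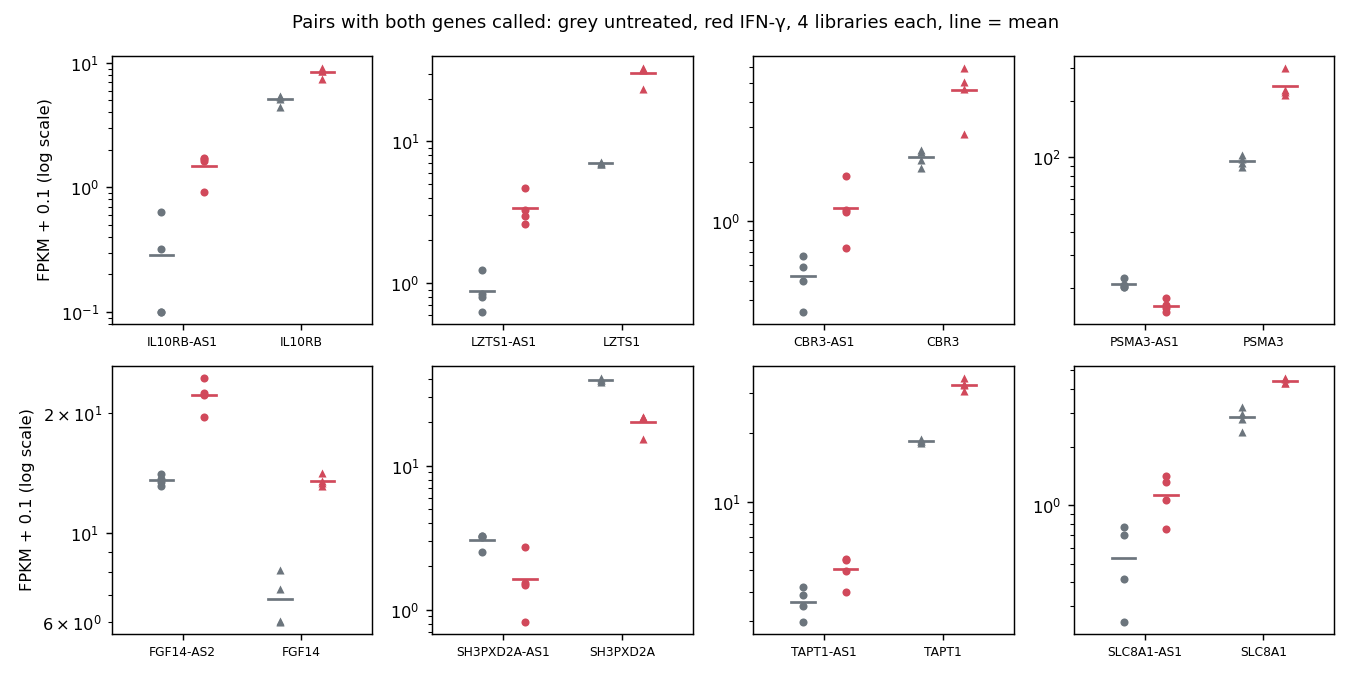
FPKM + 0.1 on log scales in each library for 8 pairs with both genes called, antisense RNAs as circles and sense genes as triangles, untreated in grey, IFN-γ in red, with bars at the means. PSMA3-AS1 falls while PSMA3 rises, and in the other 7 pairs both genes move the same way.

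CBR3-AS1 rose from 0.425 ± 0.136 to 1.07 ± 0.395 FPKM and the carbonyl reductase gene CBR3 from 2.01 ± 0.197 to 4.50 ± 1.35 FPKM (SD, n = 4), with 493 nt of shared exon. The untreated means of CBR3-AS1 and SLC8A1-AS1 were 0.425 and 0.433 FPKM. Both entered the set through their IFN-γ values, so their calls and p-values are descriptions. SH3PXD2A-AS1 fell from 2.96 ± 0.346 to 1.54 ± 0.793 FPKM (adjusted p = 0.0334) with the podosome scaffold gene SH3PXD2A (log2 change −0.98), and its groups overlapped. That call was lost without any 1 library other than IFN-γ replicates 3 and 4 (adjusted p up to 0.0821), without the trend (adjusted p = 0.0570) and without the level filter (adjusted p = 0.0593). TAPT1-AS1 (log2 change 0.47, adjusted p = 0.0318) rose with TAPT1 (0.82) and was no longer called once IFN-γ replicate 1, 2 or 3, or untreated replicate 1, 2 or 4, was removed (adjusted p up to 0.0834). Its call was also lost under the TPM scaling (adjusted p = 0.117) and without the level filter (adjusted p = 0.0541). SLC8A1-AS1 (log2 change 1.18, adjusted p = 0.0424) rose with the sodium-calcium exchanger gene SLC8A1 (0.64) and was no longer called once IFN-γ replicate 1, 2 or 3, or untreated replicate 2 or 4, was removed (adjusted p up to 0.103). The SLC8A1-AS1 call was also lost under the TPM scaling (adjusted p = 0.0577), without the trend (0.0585), without the level filter (0.0674) and with a pseudocount of 0.01 (0.0517).

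Some sense genes rose without a called change of the antisense RNA. TMCC1 rose from 6.78 ± 0.360 to 12.7 ± 0.292 FPKM, while the divergent TMCC1-AS1 was at 2.73 ± 0.1503 and 2.52 ± 0.0339 FPKM (SD, n = 4, adjusted p = 0.36). DPYD, the first enzyme of pyrimidine breakdown, rose from 11.5 ± 0.481 to 22.4 ± 1.06 FPKM. DPYD-AS2 was at 0.812 ± 0.174 and 1.26 ± 0.433 FPKM (SD, n = 4, adjusted p = 0.204), and without IFN-γ replicate 4 it was called higher (log2 change 0.80, adjusted p = 0.00947). The ephrin receptor gene EPHA5 rose from 2.59 ± 0.192 to 4.46 ± 0.506 FPKM with EPHA5-AS1 at 2.06 ± 0.370 and 2.41 ± 0.513 FPKM (SD, n = 4).

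The ratio of antisense to sense level was tested in 36 named pairs by an exact two-sided permutation test over the 8 libraries, whose smallest possible p is 0.0286, without adjustment. 9 pairs reached it. All 9 had been named for a change of 1 of the 2 genes in these same libraries, so these p-values are no independent evidence. The ratio was higher with IFN-γ for USP30-AS1 (by 2.96 on the log2 scale), SRD5A3-AS1 (2.59), SRP14-AS1 (1.07), PAXIP1-AS2 (1.00) and CDKN2B-AS1 (0.90). It was lower for PSMA3-AS1 (−1.72), TMCC1-AS1 (−1.01), CCNT2-AS1 (−0.86) and ZNF337-AS1 (−0.65). For LZTS1-AS1 the ratio differed by −0.14 (exact permutation p = 0.6) and for PKIA-AS1 by 0.08 (exact permutation p = 0.571). With a pseudocount of 1, 14 pairs reached the smallest p.

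In a fixed set of antisense RNAs, which also holds HAND2-AS1, OIP5-AS1 and the called HIF1A-AS2 given above, no change passed the threshold for FGD5-AS1, GATA3-AS1, ZEB1-AS1, DLX6-AS1, TTN-AS1, ZNRD1-AS1, DLGAP1-AS1, HOXC-AS1 or HOXD-AS2. GATA3-AS1, opposite the sympathetic factor GATA3, was at 16.4 ± 0.913 and 18.5 ± 1.69 FPKM (SD, n = 4, adjusted p = 0.126), and without IFN-γ replicate 3 it was called higher (adjusted p = 0.0287). DLX6-AS1 was at 1.11 ± 0.209 and 0.768 ± 0.162 FPKM (SD, n = 4, adjusted p = 0.0967), and the homeobox gene DLX6 fell by 0.52 on the log2 scale. Under quantile normalization DLX6-AS1 was called lower (−0.56, adjusted p = 0.0387). ZEB1-AS1 was at 4.46 ± 0.718 and 5.28 ± 0.472 FPKM (adjusted p = 0.162), and ZEB1 rose by 0.27. The ZEB1 call was lost under the TPM scaling (log2 change 0.18, adjusted p = 0.0612).

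Of 33 tested genes of nuclear and cytoplasmic RNA decay, which limits the level of short-lived antisense RNAs, 3 were called higher and 2 lower (15.2%, against 22.3% of all genes tested). XRN1, the cytoplasmic 5′ exonuclease, rose from 16.8 ± 0.384 to 35.3 ± 3.69 FPKM (SD, n = 4). RBM7, of the complex that targets nuclear RNAs to the exosome, rose by 0.46 on the log2 scale and the exosome subunit EXOSC4 by 0.30. XRN2 fell by 0.15 and DCP2 by 0.12. The count called lower was 0 without untreated replicate 3 or 4, and 1 without any of untreated replicates 1 and 2 and IFN-γ replicates 1 to 3. Of 18 genes that bind, edit or cut double-stranded RNA, 2 were higher: the editing enzyme ADAR, from 93.5 ± 0.869 to 178 ± 10.8 FPKM, and the kinase EIF2AK2, from 30.3 ± 0.476 to 64.3 ± 7.19 FPKM (SD, n = 4). ADARB1 and STRBP were lower (log2 changes −0.41 and −0.23), so 22.2% of that list was called, against 22.3% of all genes tested. The median log2 change was 0.01 in each list, against −0.0047 over all genes tested and −0.05 over the antisense RNAs.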

How the data were processed

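Ribosomal RNA was removed, and unstranded libraries were sequenced from both ends, per the labels' protocols. The deposited values are FPKM per gene, made by the authors with TopHat2, Cuffdiff and hg38, per the submitters' processing notes. The annotation, versions and any library scaling were not given in the sources used here. No counts were given, so no count model was used. The 13598 genes whose mean reached 0.5 FPKM were compared as log2(FPKM + 0.1) by limma 3.58.1 with a mean-variance trend (R 4.3.3) in a two-sided test, and p-values were adjusted over all of them by Benjamini-Hochberg. The script was tested on simulated data. Gene models were from GENCODE 29 (GRCh38), and promoters from RefSeq. Fragments are estimates from the steps of low FPKM values and the longest GENCODE transcript, and intervals cover the spread between libraries.

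The members and gene lists were chosen with earlier results of these data known. Named were up to 10 largest rises and 10 largest falls among called members with no overlap between groups and at least 1 FPKM in the higher group, the 6 highest members, the sense gene of each, up to 8 pairs with both genes called, up to 4 with the sense gene called only, and a fixed set. STARD4-AS1, IFNAR2, CDKN2A, ZNF850, FGF14-IT1, RNF144A-AS1 and CD27-AS1 and the check of whole fragments were chosen after values were seen. Alternatives were other pseudocounts, filters, scalings and limma settings, the replicate number as a block, and each library left out.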

Additional observations from a re-analysis of the deposited data

Results flagged for a closer look

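In 8 of 86 groups of 4 libraries, over 43 named antisense RNAs, 1 library lay far from the others (by Dixon's criterion). Chance flags about 1 in 20 groups. With IFN-γ, replicate 1 was high for CDKN2B-AS1 at 1.42 FPKM (others 1.08 to 1.12) and low for HAND2-AS1 at 58.9 FPKM (others 65.4 to 66.3). IFN-γ replicate 4, the library that stood apart from its group, gave 3 of the flags: FGD5-AS1 at 13.8 FPKM (others 12.4 to 12.6), LRRC75A-AS1 at 606.7 FPKM (others 434.5 to 457.2) and IL10RB-AS1 at 0.825 FPKM (others 1.54 to 1.62). Among untreated libraries, HOXD-AS2 was at 4.67 FPKM in replicate 3 (others 8.21 to 8.43), ZNF337-AS1 at 3.48 FPKM in replicate 3 (others 2.88 to 2.98) and SH3PXD2A-AS1 at 2.44 FPKM in replicate 1 (others 3.09 to 3.15).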

How the results depend on the processing

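Of 43 named genes that were called, 31 kept their call under each alternative that tested them, and of 47 called members 27 did. Over the alternatives, 1299 of 1392 values of named genes kept their side of the threshold, 75 lost it and 16 gained it with the same sign. The sign differed in 34 values of 13 genes, of which 32 were uncalled in both fits. The other 2 were PCNA (log2 change −0.12, adjusted p = 0.0372) and SRP14 (−0.15, adjusted p = 0.0193), both under quantile normalization, which moved the median of all genes to −0.071. Conversion to TPM with short RNA genes removed moved that median to −0.096. FPKM summed over all rows was 1256812, 1433357, 633862 and 1330601 in untreated replicates 1 to 4, and 591795 to 760353 with IFN-γ. Without the short RNA genes the sums were 404311 to 408401 untreated. With IFN-γ they were then 414145, 417810, 420434 and 481628 in replicates 1 to 4. Quantile normalization gave 2564 genes, 47 members, 85 sense genes, 6 RNA decay genes and 5 double-stranded RNA genes called lower, 31 pairs in the same direction and 4 in opposite directions. The TPM scaling gave 1142 genes and 33 sense genes called higher. Decay genes called lower numbered 1 without the trend, without the filter and with the replicate block. A pseudocount of 1 gave 14 ratios at the smallest p. With 1 library left out, members called lower ranged from 12 (without untreated replicate 4) to 24, sense genes called lower from 31 (without untreated replicate 2, and 32 without untreated replicate 3) to 58, pairs in the same direction from 11 to 25, pairs in opposite directions from 1 to 3 and decay genes called lower from 0 (without untreated replicate 3 or 4) to 3. The cause of these shifts was not tested. Same-numbered libraries correlated at −0.027, 0.079, 0.061 and 0.061 in their deviations, so the numbers were not taken to pair them, and the replicate block gave 29 members higher and 20 lower. Leaving libraries out was not run for the ratios, since the smallest p would then exceed 0.05. Depth limits the 84 members with under 20 fragments per library.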

Other observations

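Leaving out the sense genes, a tested gene at least 2-fold higher with IFN-γ lay within 50 kb of 2 called members. RNF144A-AS1, called lower, lies near RSAD2, an antiviral enzyme gene that went from 0.1497 to 5.51 FPKM (log2 change 4.49). CD27-AS1, called higher, lies near TAPBPL, a gene of antigen presentation that went from 1.75 to 12.2 FPKM (log2 change 2.73). Such a neighbour was present for 1 of 27 members called higher, 1 of 19 called lower and 2 of 329 not called.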
